A study of Rattus norvegicus with 20 samples.

Results

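Voltage-gated sodium channels carry the fast inward current of the neuronal action potential. The 8 subunit genes described here encode the pore-forming alpha subunits Nav1.1 (Scn1a), Nav1.2 (Scn2a), Nav1.3 (Scn3a), Nav1.6 (Scn8a) and Nav1.7 (Scn9a), and the accessory beta subunits Scn2b, Scn3b and Scn4b. They were chosen by name from the 32402 Ensembl genes of the deposited tables. The rule used names and no measured value, although earlier results of these data were known when it was made.

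Each alpha subunit forms a complete sodium-selective pore on its own. It opens when the membrane depolarises and inactivates rapidly, and beta subunits modify its gating, its delivery to the surface and its contacts with adhesion proteins. Scn2b and Scn4b proteins are joined to the alpha subunit by a disulphide bond, whereas the Scn3b protein binds without one. In the magnocellular neurones of the supraoptic nucleus (SON), which make vasopressin and oxytocin, the firing set by these channels drives hormone release into the blood. The study, citing earlier work, describes expression of Nav1.2, Nav1.6 and Nav1.7 as raised by osmotic stimulation in SON neurones. From its ageing data it proposes that ageing leaves these genes unaffected. Transcript levels after dehydration (DH) and with age are given here for whole SON punches, which hold other cells beside these neurones. They measure neither channel protein nor expression in magnocellular neurones alone.

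RNA-seq of poly(A) RNA was performed on SON tissue punched bilaterally from male Wistar Han rats, with 5 rats in each of 4 groups. Adult rats of 3 months and aged rats of 18 months were either euhydrated (EH), with free access to water, or dehydrated. The sample labels give DH as 2 days, and the methods of the study give a longer period. The comparisons were ageing, where aged EH rats were set against adult EH rats, the response to DH within each age, called adult DH and aged DH, and the difference between these 2 responses. Per the methods of the study, rats of both ages were handled in parallel, and their tissue was punched, extracted and sequenced together.

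Values are normalized counts, meaning reads per gene divided by a size factor of the library, which was estimated within each table of 10 libraries. Summed over genes they came to 25931931 to 28689164 per library. Recovery of whole reads was run on the adult DH table only, where libraries held 24268398 to 28491926 reads on genes. Log2 fold changes (LFCs) were taken on log2 of the normalized count plus 1 and are given with their standard error (SE). A gene was called differentially expressed at a limma p-value under 0.05 after Benjamini-Hochberg adjustment over all genes tested. All 8 members were far above the minimum mean of 10 and were tested in every comparison.

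The punches were rich in magnocellular transcripts and held other cells as well. The summed level of 7 magnocellular markers was 287684 to 374575 in adult EH, 397726 to 498493 in adult DH, 357842 to 481363 in aged EH and 419151 to 643492 in aged DH. With DH, all 7 markers had an LFC above 0 at each age, and 6 were called in adult rats and 4 in aged rats. Over all genes tested, 12.7% were called in adult DH and 7.29% in aged DH. The summed level of 10 forebrain glutamatergic markers was 12129 to 19614 in adult EH, 9578 to 15661 in adult DH, 13317 to 20846 in aged EH and 9067 to 12842 in aged DH. Of these 10, 5 were called lower in aged DH, and 1 was called higher and 1 lower in adult DH. No marker of either list was at 0, and the part of tissue composition in the sodium channel results was not tested. In ageing, all 10 oligodendrocyte markers had an LFC below 0, and 5 were called lower. All 7 microglia markers had an LFC above 0 in ageing, and 3 were called higher. Over all genes tested, 5.99% were called in ageing. In bulk tissue, fewer cells of a type and less RNA per cell cannot be told apart.

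None of the 8 sodium channel genes was called in any of the 4 comparisons by limma. The share of all tested genes called was 5.99% in ageing, 12.7% in adult DH, 7.29% in aged DH and 0% in the difference between the ages. At an unadjusted p under 0.05, the count of members was 0 of 8 in ageing, where 20.3% of all genes passed. It was 1 of 8 in adult DH (Scn4b, against 26.9% of all genes) and 1 of 8 in aged DH (Scn9a, against 21.4%). In the difference between the ages it was 2 of 8 (Scn1a and Scn4b, against 9.93%). No member had groups without overlap, whereas 6.38%, 10.9% and 7.05% of all genes did so in ageing, adult DH and aged DH. On the recovered reads of the adult DH table, edgeR and DESeq2 also called 0 of 8.

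For most members the measured changes were small. The median absolute LFC of the 8 members was 0.041 in ageing, 0.038 in adult DH and 0.077 in aged DH, beside 0.077, 0.092 and 0.086 over all genes tested. Genes that were called had a median absolute LFC of 0.35, 0.24 and 0.27 in these comparisons. Scn3b and Scn2a were among the most tightly measured. The 95% confidence interval of the change in Scn3b was -3.97% to 6.003% in ageing, -2.33% to 8.41% in adult DH and -5.37% to 4.16% in aged DH. That of Scn2a was -1.42% to 8.97%, -3.72% to 6.51% and -11.3% to 1.49% in the same order. Other intervals were wider. In adult DH the interval was -30.5% to -2.08% for Scn4b (LFC -0.28) and -20.2% to 2.57% for Scn1a. In aged DH it was -20.7% to -0.220% for Scn9a (LFC -0.17) and -1.35% to 24.8% for Scn1a. The plot of normalized counts by group shows the overlap of the 4 groups for each gene, and the plot of LFCs shows how far each interval reached.

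**Figure D1:**
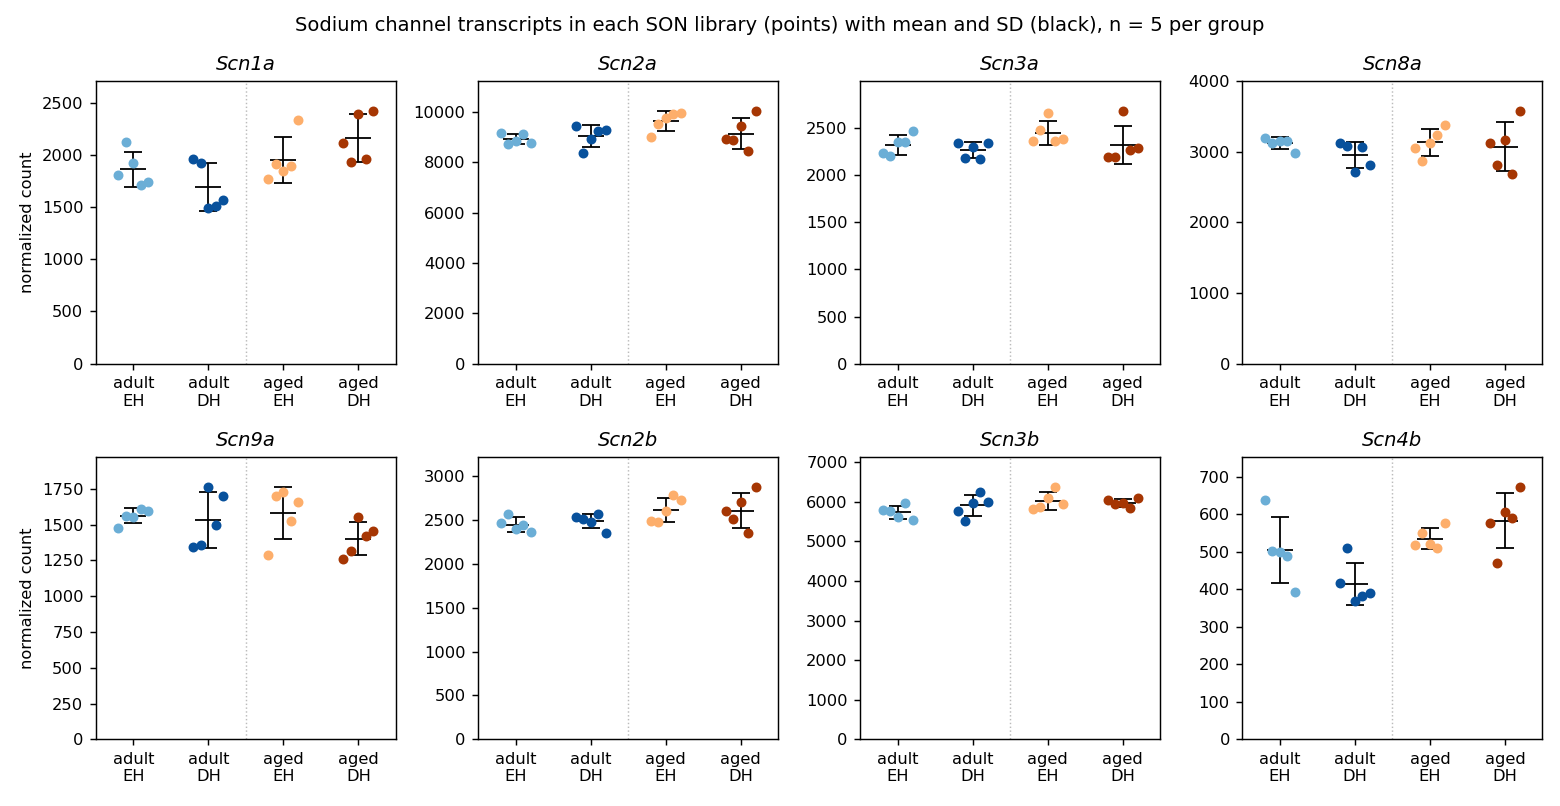
Normalized counts (vertical axes, starting at 0) of the 8 sodium channel subunit genes in adult EH, adult DH, aged EH and aged DH rats. Points are rats, ordered by replicate number, and black bars are the mean ± SD of 5 rats. Values come from the DH table of each age, which were scaled separately. EH and DH rats of each age overlap for every gene.

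**Figure D2:**
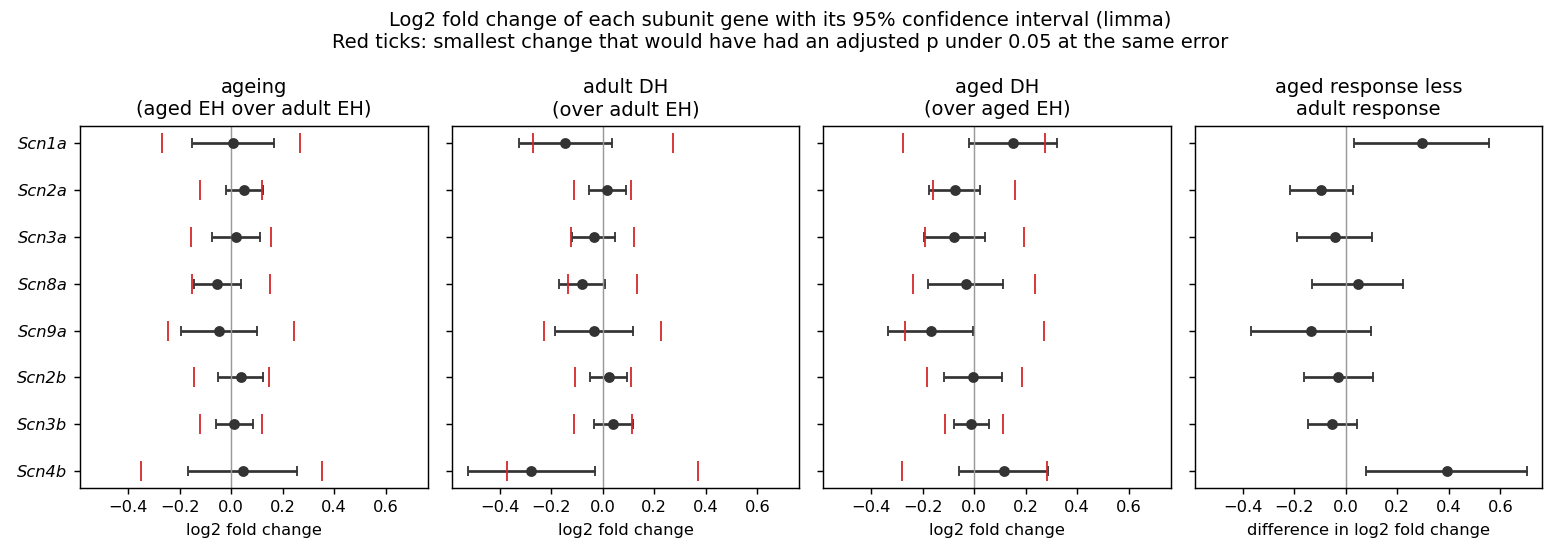
LFC of each subunit gene (horizontal axis, log2) with its 95% confidence interval from limma, in ageing, adult DH, aged DH and the difference between the ages. Red ticks mark the smallest LFC that would have been called at the same standard error. No point lies beyond its ticks, and the intervals of Scn4b and Scn1a are among the widest.

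Scn2a (ENSRNOG00000005018), which encodes Nav1.2, an alpha subunit of unmyelinated axons and initial segments, was measured with little spread. Values of single rats are listed for each group in order of replicate number. In adult EH rats its normalized counts were 9160.2, 8731, 8856, 9128 and 8755. In adult DH rats they were 9442, 8369, 8912, 9240.4 and 9265. The adult DH rats lay on both sides of the adult EH rats, with the lowest value and the highest both in DH. The LFC in adult DH was 0.018 (SE 0.034, limma adjusted p = 0.785).

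In aged EH rats the normalized counts of Scn2a were 8994, 9529, 9748, 9924 and 9945. In aged DH rats they were 8920.3, 8871, 9442, 8457 and 10025. Of the aged DH rats, 3 lay below all aged EH rats and 1 above them. The LFC in aged DH was -0.076 (SE 0.045, limma adjusted p = 0.368). In the ageing table the mean (± SD, n = 5) was 9305 ± 215 in adult EH and 9649 ± 401 in aged EH. The LFC in ageing was 0.052 (SE 0.034, limma adjusted p = 0.441). An LFC of 0.11 in adult DH, 0.16 in aged DH or 0.12 in ageing would have been called at these errors.

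Scn8a (ENSRNOG00000005309) encodes Nav1.6, the alpha subunit that accumulates at nodes of Ranvier and the distal initial segment. Its normalized counts were 3203, 3128, 3149.6, 3151 and 2991 in adult EH rats. They were 3125, 3087, 2714, 3066 and 2809 in adult DH rats. The adult EH rats were close together, and 2 of the 5 adult DH rats lay below all of them. The LFC was -0.080 (SE 0.041, limma adjusted p = 0.238).

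In aged rats the spread of Scn8a was wider. The values were 3049, 2876, 3129.7, 3243 and 3381 in aged EH and 3127, 2814, 3175, 2684 and 3574 in aged DH. The lowest and the highest aged rat were both DH rats. The coefficient of variation was 2.55% in adult EH and 11.3% in aged DH. The LFC was -0.033 in aged DH (SE 0.068, limma adjusted p = 0.837) and -0.053 in ageing (SE 0.042, limma adjusted p = 0.545).

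Scn9a (ENSRNOG00000006639) encodes Nav1.7, known from sensory neurones for amplifying small depolarisations and also present in hypothalamic neuroendocrine cells. In adult EH rats its normalized counts were 1479, 1563, 1551, 1611 and 1597, and in adult DH rats they were 1341, 1357, 1762, 1499.7 and 1702. The adult EH rats were close together. Of the adult DH rats, 2 lay below all of them, 2 above and 1 among them. The LFC was -0.035 (SE 0.070, limma adjusted p = 0.806). With RNA integrity as a covariate it was -0.18 (limma adjusted p = 0.105), and under the other alternatives that kept all rats it lay between -0.079 and -0.025. The adult EH rats share a single integrity number in the study's notes and some of the adult DH rats have a lower one, so this covariate is in part tied to the groups.

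In aged EH rats the values of Scn9a were 1289, 1702, 1724, 1526 and 1654, and in aged DH rats they were 1262, 1314, 1552, 1419 and 1457. Aged EH replicate 1 stood low and within the range of the DH rats, and the other 4 aged EH rats lay above 4 of the 5 aged DH rats. In aged DH, Scn9a had the largest absolute LFC of the 8 members, at -0.17 (SE 0.077, limma adjusted p = 0.222). Without aged EH replicate 1 the LFC was -0.24 (limma adjusted p = 0.0374), which is past the threshold. With each of the other 9 rats left out in turn the gene was not called. The same rat entered the ageing comparison, where the LFC of Scn9a was -0.047 (SE 0.068, limma adjusted p = 0.772) with it and 0.025 (limma adjusted p = 0.817) without it.

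Scn1a (ENSRNOG00000053122) encodes Nav1.1, an alpha subunit best known from fast-spiking inhibitory neurones. Its normalized counts were 1807, 2122, 1923, 1709 and 1743 in adult EH rats and 1961, 1924, 1488, 1512 and 1567 in adult DH rats. In adult DH, 3 rats lay below all adult EH rats and 2 lay within their range. The LFC was -0.14 (SE 0.084, limma adjusted p = 0.297). With RNA integrity as a covariate it was 0.0043 (limma adjusted p = 0.984).

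In aged rats the values of Scn1a were 1764, 1910.01, 1845, 1889 and 2334 in EH and 2114, 1927, 2389, 1962 and 2416 in DH. Aged EH replicate 6 stood apart from the other aged EH rats, all of which lay below every aged DH rat. The LFC was 0.15 (SE 0.079, limma adjusted p = 0.300), and without that rat it was 0.22 (limma adjusted p = 0.0792). In ageing the LFC was 0.0072 (SE 0.074, limma adjusted p = 0.973).

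Scn3a (ENSRNOG00000005007), which encodes Nav1.3, an alpha subunit prominent in the developing brain, ranged over 2207 to 2468 in adult EH and 2174 to 2342 in adult DH. It ranged over 2360.1 to 2662 in aged EH and 2188 to 2678 in aged DH, where replicate 3 held the highest value and the other 4 rats lay below all aged EH rats. The LFC was -0.035 in adult DH (SE 0.038, limma adjusted p = 0.615), -0.078 in aged DH (SE 0.055, limma adjusted p = 0.469) and 0.019 in ageing (SE 0.043, limma adjusted p = 0.863).

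Among the beta subunits, Scn4b (ENSRNOG00000026679) showed the largest absolute LFC of any member in adult DH. Its protein is known for supporting resurgent current in fast-firing neurones. The normalized counts were 639, 503, 499.9, 488 and 393 in adult EH rats and 417, 511, 369.8, 383 and 390.01 in adult DH rats. Adult EH replicate 1 lay above all adult DH rats, the other 4 adult EH rats lay within the range of the DH rats, and replicate 6 was the lowest of them. The group means were 505 ± 87.8 and 414 ± 56.8 (SD, n = 5). The LFC was -0.28 (SE 0.11, limma adjusted p = 0.139). With RNA integrity as a covariate the LFC was -0.16 (limma adjusted p = 0.558). The adjusted p was 0.133 with edgeR and 0.0855 with DESeq2 on the recovered reads. Without adult EH replicate 6 the LFC was -0.36 (limma adjusted p = 0.0413), which is past the threshold, and without replicate 1 it was -0.19 (limma adjusted p = 0.279).

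In aged rats the values of Scn4b were 517, 551, 522, 511 and 575 in EH and 578, 469, 605, 589.8 and 672 in DH. The aged EH rats lay close together, while the aged DH rats held both the lowest value and the 4 highest. The LFC was 0.11 in aged DH (SE 0.081, limma adjusted p = 0.464) and 0.044 in ageing (SE 0.098, limma adjusted p = 0.859). Pvalb, a calcium-binding protein gene of fast-spiking neurones and a marker on the GABA list, had an LFC of -0.28 in adult DH (SE 0.11, limma adjusted p = 0.104) and rose in aged DH by 0.37 (SE 0.090, limma adjusted p = 0.0248). It was the only one of the 11 genes of that list to be called in aged DH, where 4 had an LFC above 0 and 7 below, with a median of -0.034. Its part in the values of Scn4b was not tested.

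Scn2b (ENSRNOG00000016221), whose protein is covalently linked to the alpha subunit, ranged over 2360.4 to 2569 in adult EH, 2353 to 2563 in adult DH, 2469 to 2779 in aged EH and 2348 to 2871 in aged DH. Its LFC was 0.024 in adult DH (SE 0.034), -0.0057 in aged DH (SE 0.053) and 0.038 in ageing (SE 0.041), with limma adjusted p from 0.676 to 0.969. Scn3b (ENSRNOG00000057221), whose protein binds the alpha subunit without a covalent bond, ranged over 5547 to 5973 in adult EH, 5527 to 6256 in adult DH, 5809.6 to 6375 in aged EH and 5842 to 6096 in aged DH. Its LFC was 0.041 in adult DH (SE 0.035), -0.010 in aged DH (SE 0.032) and 0.013 in ageing (SE 0.033), with limma adjusted p from 0.496 to 0.898. The aged DH rats had the lowest coefficient of variation of all groups for Scn3b, at 1.63%.

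Whether the response to DH differed between the ages was tested over all 20 rats. The difference was the LFC in aged rats less the LFC in adult rats. It was 0.39 for Scn4b (SE 0.15, limma adjusted p = 0.394) and 0.29 for Scn1a (SE 0.13, limma adjusted p = 0.450). Both genes had a lower mean in DH than in EH among adult rats and a higher mean in DH among aged rats, although the adult LFC of Scn1a changed sign with the integrity covariate, and in neither case did the adjusted test call a difference. For the other 6 members the difference lay between -0.13 (Scn9a) and 0.046 (Scn8a), with limma adjusted p of 0.622 or above. In this comparison limma called 0 of all 15326 genes tested, and 1522 had an unadjusted p under 0.05.

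Related Scn genes and genes for proteins that work with these channels were examined beside the members. Of 4 other Scn genes examined, 3 were tested in the DH comparisons, since Scn10a had a mean under 10. In adult DH 1 was called higher (Scn7a), in aged DH 0 of 3 were called, and in ageing 0 of 4 were called. Scn7a encodes Nax, a sodium-level sensor that is not gated by voltage. It rose in adult DH, from 132 to 226 in adult EH to 189.7 to 291 in adult DH, an LFC of 0.53 (SE 0.15, limma adjusted p = 0.0306). The call was lost in 6 of the 10 fits that left out a rat. It was also lost in 3 of the 11 alternatives that kept all rats, among them the integrity covariate (limma adjusted p = 0.180). In aged DH the LFC was 0.091 (SE 0.15, limma adjusted p = 0.795), and the 2 responses differed by -0.44 (SE 0.23, limma adjusted p = 0.540).

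A list of 20 genes for sodium channel partners was examined: fibroblast growth factor homologues that bind the channel, ankyrins, spectrins, adhesion proteins, calmodulins, ubiquitin ligases, a protease, a kinase, the leak channel Nalcn and Prrt2. With DH in adult rats 2 were called higher and 1 lower, in aged rats 1 higher and 2 lower, and 0 of 20 were called in ageing. These are 3 of 20 in each DH comparison, where 12.7% of all genes were called in adult DH and 7.29% in aged DH. The median LFC of the list was -0.0079 in adult DH and -0.018 in aged DH, beside -0.0073 and -0.0030 over all genes. Prrt2, a membrane protein known to bind Nav1.2 and Nav1.6 and to lower their current, fell by 0.23 on the log2 scale in adult DH (SE 0.046, limma adjusted p = 0.00533) and by 0.31 in aged DH (SE 0.057, limma adjusted p = 0.00484). Its values were 4542, 3921, 4686, 4496 and 4192 in aged EH and 3356, 3686, 3462, 3226 and 3897 in aged DH, groups that do not overlap. In adult rats the groups did overlap, with adult DH replicate 1 at 3867 and adult EH replicate 6 at 3747. The adult call was lost with the integrity covariate (limma adjusted p = 0.0627), and the aged call with a block for replicate number (limma adjusted p = 0.0586).

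Nfasc encodes neurofascin, an adhesion protein of initial segments and nodes. It rose by 0.20 in adult DH (SE 0.036, limma adjusted p = 0.00266) and by 0.16 in aged DH (SE 0.040, limma adjusted p = 0.0309), and the groups do not overlap in either age. The aged call was lost in 5 of the 10 fits that left out a rat. It was also lost in 2 of the 9 alternatives that kept all rats (limma adjusted p up to 0.0899), the fold filter among them. Fgf13, a cytoplasmic channel-binding factor, fell by 0.26 in aged DH (SE 0.048, limma adjusted p = 0.00581) and had an LFC of -0.19 in adult DH (SE 0.072, limma adjusted p = 0.102). Its aged call was lost with a block for replicate number (limma adjusted p = 0.0609). Sptbn1, a spectrin of the membrane skeleton, rose by 0.11 in adult DH (SE 0.032, limma adjusted p = 0.0436). This call was lost in 8 of the 10 fits that left out a rat. It was also lost in 7 of the 11 alternatives that kept all rats. Among these were the fold filter and the integrity covariate (limma adjusted p = 0.140 with the covariate). For each of these genes the difference between the ages was not called, with limma adjusted p of 0.574 or above.

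**Figure D3:**
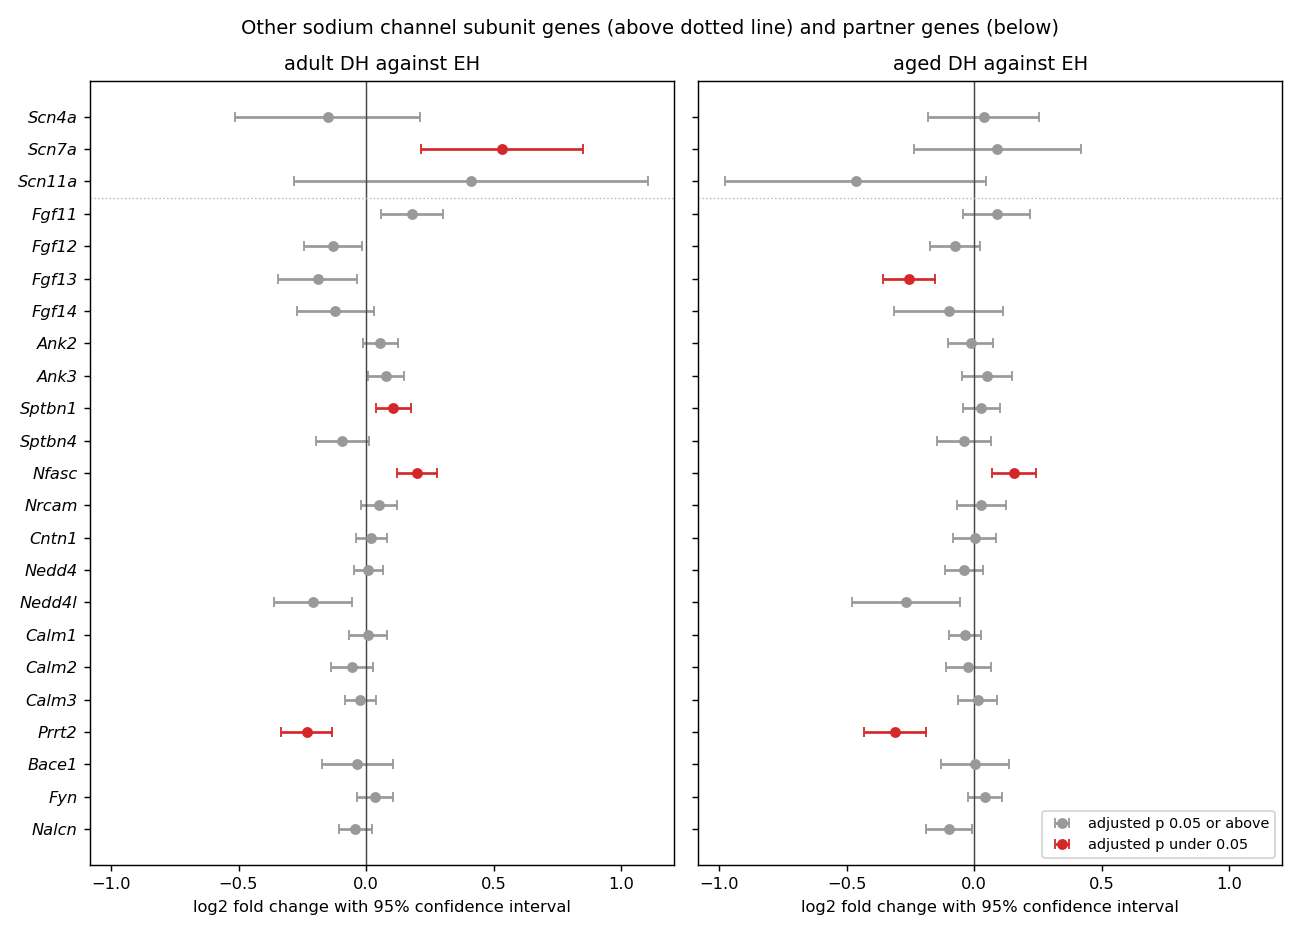
LFC with 95% confidence interval (horizontal axis, log2) of 3 other sodium channel subunit genes and 20 partner genes in adult DH and aged DH, each against EH rats of the same age. Red points were called by limma. Prrt2 lies to the left of 0 and Nfasc to the right in both panels.

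The subunit genes did not all vary together over the rats. Over the 20 rats of the DH tables, with each table's mean subtracted, Pearson's r between log2 values ranged from -0.38 to 0.79 over the 28 pairs of members, with a median of 0.17. The mean of a table covers its EH and DH rats together. Each r therefore holds the difference between EH and DH as well as the spread within a group. The pairs also share libraries and tissue composition, so these values are a description. The highest was between Scn8a and Scn2b (0.79), followed by Scn1a and Scn4b (0.65). Scn3a and Scn9a went together (0.62), and Scn2a went with Scn2b (0.62), Scn8a (0.58) and Scn3b (0.58). The lowest was between Scn1a and Scn3b (-0.38).

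Against marker lists, Scn8a had an r of 0.81 with the mean of the striatal and GABA neurone markers, and Scn1a 0.61. Scn2b went with the general neuronal markers (0.76), as did Scn2a (0.62). No member had an r above 0.25 with the magnocellular markers, and that value belonged to Scn3b. The lowest with that list was -0.40, for Scn8a. Of its 7 genes, 6 were called higher in adult DH and 4 in aged DH. The response to DH was left in these values, so r with this list cannot tell that response apart from magnocellular cell content.

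**Figure D4:**
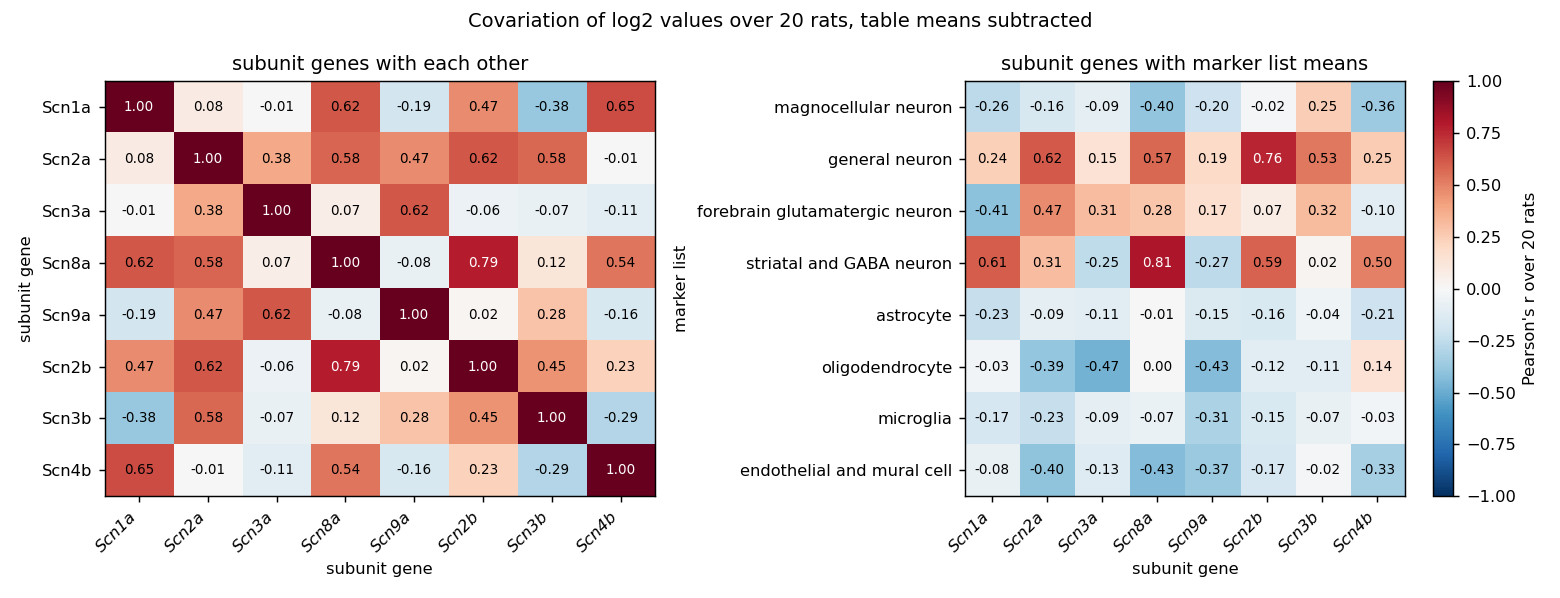
Pearson's r over 20 rats between log2 normalized counts, table means subtracted, for each pair of subunit genes and for each subunit gene with the mean of each marker list. List means hold only genes with a mean of at least 50 in both DH tables, which left 7 of the 10 forebrain glutamatergic markers. Colour and number both give r. The highest value off the diagonal is 0.81, between Scn8a and the striatal and GABA neurone markers.

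The genes most like each member over the same 20 rats were sought among 12575 genes with a symbol and a mean of at least 50 in both DH tables, and 3 are given for each. For Scn1a they were Esrrg (0.91), the fast potassium channel gene Kcnc1 (0.88) and the synaptotagmin gene Syt2 (0.87). For Scn4b they were Pvalb (0.82), the potassium channel beta subunit gene Kcnab3 (0.80) and Rpp25 (0.77). For Scn8a they were Srgap3 (0.87), the dynamin gene Dnm1 (0.86) and the axonal potassium channel gene Kcna2 (0.84). For Scn2b they were Rims1 (0.80), Nrxn2 (0.79) and Scn8a (0.79).

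For Scn2a they were Wasl (0.88), B4galt6 (0.88) and the adhesion molecule gene Ncam2 (0.85). For Scn9a they were Nalcn (0.84), which encodes a sodium leak channel, Mblac2 (0.80) and Fundc1 (0.78). For Scn3a they were the nicotinic receptor gene Chrna7 (0.82), Ttll12 (0.76) and Pip5k1a (0.75). For Scn3b they were Brd7 (0.84), the vesicle protein gene Vamp2 (0.75) and Gnal (0.75). These coefficients also hold the difference between EH and DH, are the highest of many and carry no test.

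The genes also lie in clusters. In the RefSeq annotation of the rat assembly GRCr8, Scn3a and Scn2a are neighbours among protein-coding genes, and Scn1a, Scn9a and Scn7a follow one another after 4 other protein-coding genes. Scn2b and Scn4b are neighbours as well. Over the 20 rats, neighbouring genes had an r of 0.38 for Scn2a and Scn3a, -0.19 for Scn1a and Scn9a, and 0.23 for Scn2b and Scn4b. The alpha subunits are paralogues of similar sequence, and how reads that match several genes were counted is not given in the sources used here, so part of a gene's count could belong to a close paralogue. Levels were not compared between genes, because transcript lengths were not used here.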

How the data were processed

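Poly(A) RNA of 20 SON libraries was sequenced by the authors, who mapped the reads to rat genome Rn6 (STAR) and made gene counts with featureCounts. Versions of both are not given in the sources at hand. The deposited signal in each library's column is a normalized count, the read count divided by a DESeq2 size factor that the authors estimated within each of 3 tables, so tests stayed within a table except for the difference between the ages. The authors also deposited, from DESeq2, log2 fold changes with standard errors, a Wald score and a p-value before and after adjustment. These were not used, nor were their mean columns.

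A pseudocount of 1 was added before taking log2. Genes averaging 10 or more entered a two-sided limma test (3.58.1, R 4.3.3) with mean-dependent moderation. P-values were adjusted by Benjamini-Hochberg over every gene tested, at a threshold of 0.05. The difference between the ages was fitted over 20 rats, each from the DH table of its age. The procedure was tested on simulated data in which every planted change was larger than that of any member. That test therefore does not cover changes of the size measured for the members. In the adult DH table every low value was a whole number of reads within 0.1 (100% of values), and edgeR 4.0.16 (1936 genes called) and DESeq2 1.42.0 (2256) were run on these reads as alternatives. Other alternatives changed the pseudocount, filter, scaling, moderation, RNA integrity covariate and fold filter, or left out 1 rat at a time. The members and lists were chosen with earlier results of these data known. All 8 members are named in every comparison, list genes where the list is described, and the 3 most similar genes by Pearson's r. Replicates are separate rats. SDs give the spread between them, and SEs are standard errors from limma, whose variances are moderated over all genes. Some family genes are not reported here. No sequence is printed, since these data bear on transcript levels only. Figures were drawn with matplotlib 3.10.9.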

Additional observations from a re-analysis of the deposited data

Results flagged for a closer look

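In a check for a single rat far from the other 4 of its group, 3 of 48 combinations of gene, group and table stood out, and chance gives about 1 in 20. Scn1a in aged EH replicate 6 was the highest of its group, with a normalized count of 2349 in the ageing table and 2334 in the aged DH table. These are the same library scaled in 2 tables. Scn3a in aged DH replicate 3 was the highest of its group, with a normalized count of 2678. No cause was tested.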

How the results depend on the processing

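The count of called members was 0 in each of the 4 comparisons under every alternative of pseudocount, filter, scaling, moderation, covariate and replicate block, and with edgeR and DESeq2 in adult DH. It was also 0 with the fold filter, which can only remove calls, so that result was fixed in advance. With each rat left out in turn it ranged from 0 to 1 in adult DH (Scn4b, without adult EH replicate 6) and from 0 to 1 in aged DH (Scn9a, without aged EH replicate 1), and it was 0 in ageing and in the difference between the ages. Of 704 member values under alternatives, 676 kept their direction and their side of the threshold, 26 changed sign and 2 passed the threshold. The 676 include the values under the fold filter, which could not change. All sign changes were of LFCs that were not called. With every library scaled to the same total, LFCs in ageing were -0.023 for Scn1a, -0.011 for Scn3a and -0.017 for Scn3b, and in adult DH -0.0081 for Scn2a and -0.0027 for Scn2b. With RNA integrity as a covariate, LFCs in adult DH were 0.0043 for Scn1a, -0.0057 for Scn2a and -0.0023 for Scn3b. With a rat left out, LFCs in ageing ranged from -0.061 to 0.055 for Scn1a, -0.011 to 0.041 for Scn3a, -0.0074 to 0.027 for Scn3b, -0.042 to 0.13 for Scn4b and -0.080 to 0.025 for Scn9a. In adult DH they ranged from -0.087 to 0.011 for Scn9a. In aged DH they ranged from -0.042 to 0.031 for Scn2b, -0.023 to 0.010 for Scn3b and -0.090 to 0.014 for Scn8a, and the difference between the ages from -0.065 to 0.0072 for Scn2b and -0.0097 to 0.094 for Scn8a. The cause was not tested.

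Replicate numbers were not treated as pairs of rats in the main fits. Same-numbered libraries had correlations of deviations from -0.083 to 0.16. Libraries of unlike number were not compared, so these values cannot decide whether the numbers pair the rats. With a replicate block, 0 of 8 members were called in each comparison, and over all genes 824 were called in ageing (921 without it), 987 in adult DH (1934) and 653 in aged DH (1119). With the block the limma adjusted p was 0.155 for Scn7a and 0.0746 for Sptbn1 in adult DH, and 0.0586 for Prrt2 and 0.0609 for Fgf13 in aged DH. Other alternatives that moved the count over all genes by more than 1.5 times were moderation without a trend (516 in ageing and 671 in aged DH), the integrity covariate (1005 in adult DH), a fold filter of 0.5 (303, 304 and 218) and single rats left out (594 to 906 in ageing and 678 to 1186 in aged DH). Scaling to the same total moved the genes called higher from 414 of 921 to 302 of 1049 in ageing and from 1172 of 1934 to 890 of 2051 in adult DH. In the difference between the ages, 0 to 5 genes were called with a rat left out, none of them a member. Of 141 values of called family and partner genes, 103 stayed past the threshold and 38 did not, and none changed sign. The fold filter, which could only remove calls, is among these alternatives. Dividing levels by coding length was not run, because protein lengths were not at hand, and levels were not compared between genes.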

Other observations

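Scn4a had an LFC of 0.48 in ageing (SE 0.14, limma adjusted p = 0.0596) and Scn11a one of 0.77 (SE 0.27, limma adjusted p = 0.125), neither past the threshold. The normalized counts of Scn4a were 63.2, 74.3, 66.8, 100.3 and 62.4 in adult EH and 115, 92.1, 102, 103 and 94.96 in aged EH. Scn4a encodes the skeletal muscle channel Nav1.4, and Scn11a and Scn10a encode channels of sensory neurones. Scn10a had a mean of 12.2 in the ageing table and an LFC of -0.21 (SE 0.35, limma adjusted p = 0.806).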
